A study of Mus musculus with 17 samples.

Results

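Wfikkn2 and 9 genes of the transforming growth factor beta (TGF-beta) family were examined in mouse retinal pigment epithelium (RPE), the pigmented cell layer behind the photoreceptors. The 10 genes were taken by symbol from a table of 22253 genes: the inhibitors Wfikkn2 and Wfikkn1, the ligands Gdf11, Mstn, Bmp4, Bmp7 and Tgfb2, and the receptors Acvr2a, Acvr2b and Tgfbr1. Wfikkn2 was chosen because its level in these same libraries was known to differ between peripheral and central cells, so all of its values are a description and carry no test.

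Cells were collected under the microscope and pooled, with 1 RNA-seq library per pool and 17 libraries in all. There were 6 libraries of GFP+ cells from the periphery of the eyecup, 5 of peripheral GFP- cells (ctrl periphery) and 6 of central GFP- cells (ctrl center). The mice, of both sexes, were 2 months old, on the C57BL6/J background and heterozygous for the Serpine3GFP allele, in which a GFP cassette interrupts the coding sequence of Serpine3. Every group, the GFP- controls included, therefore carried 1 disrupted copy of Serpine3, no wild-type animals were part of the comparison, and GFP marked cells that use the Serpine3 promoter. The labels give 10 to 15 cells a pool, and the study's methods state a somewhat lower number. Mice 1, 2, 4, 5 and 7 gave a library of each group, mouse 3 only GFP+ cells and mouse 6 only central GFP- cells. Mouse 1 carries 2 animal numbers in the labels, read here as 2 animals pooled.

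WFIKKN proteins are secreted and carry several protease-inhibitor-like modules beside a follistatin-like and an immunoglobulin-like module. They are known as extracellular inhibitors of myostatin, the product of Mstn, and of its close relative GDF11. TGF-beta family ligands are made as precursors that proteases cut, and the mature dimers bind a type II receptor, which activates a type I receptor and through it the SMAD proteins that enter the nucleus. In the eye, bone morphogenetic proteins (BMPs) and their antagonists are known for roles in patterning the optic cup and in RPE development.

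The 2 inhibitors and the 2 ligands they are best known for are pairs of related genes, so it was asked whether reads could be shared within a pair. The lines below give the stretch around the longest run of bases that the coding sequences of each pair have in common, in capitals, with 20 coding bases on either side. All are from exon 2 in the GENCODE M21 transcripts of GRCm38, written 5′ to 3′ on the coding strand. Wfikkn2 and Wfikkn1 were read at chr11:94238851-94238907 (minus strand) and chr17:25878913-25878969 (minus strand), and Gdf11 and Mstn at chr10:128886428-128886479 (minus strand) and chr1:53063949-53064000 (plus strand).
Wfikkn2: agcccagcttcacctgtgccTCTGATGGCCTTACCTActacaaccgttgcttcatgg
Wfikkn1: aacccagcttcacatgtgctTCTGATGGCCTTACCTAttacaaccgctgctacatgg
Gdf11: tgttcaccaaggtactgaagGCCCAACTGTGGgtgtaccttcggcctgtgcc
Mstn: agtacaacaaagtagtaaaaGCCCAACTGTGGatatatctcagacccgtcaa
The longest shared run was 17 bases between Wfikkn2 (1713 coding bases) and Wfikkn1 (1656), and 12 bases between Gdf11 (1215) and Mstn (1128). Over the whole transcripts, 0 runs of 31 bases were shared in either pair. Wfikkn2 lies at chr11:94235956-94246005 on the minus strand, in 2 exons, and shares no exon bases with another annotated gene. The exons of Bmp4, Tgfb2 and Acvr2a overlap Gm15217, Gm29491 and Orc4, each on the opposite strand, and since the use of strand in counting is not given in the sources used here, reads of those overlaps cannot be told apart.

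Total counts ranged from 9896118 to 22467079 per library. Serpine3 held 107 to 576 counts in the GFP+ libraries, 5 counts in 1 peripheral GFP- library and 0 in the other 4, and 0 in all 6 central libraries. Of 8 RPE markers, 7 were found in every library and Best1, which encodes an RPE chloride channel, held at most 2 counts. The summed RPE markers ranged from 40056 to 55659 CPM (counts scaled to a common library total by the trimmed mean of M-values, TMM) in GFP+ cells, from 37861 to 60886 in peripheral GFP- cells and from 34381 to 66854 in central cells. The central libraries of mice 4, 5 and 7 stood apart, with 5392 to 6681 genes at 10 or more counts against 7966 to 10543 in the other 14. Mitochondrial genes took 0.710% to 17.2% of the counts in GFP+, 12.5% to 30.4% in peripheral GFP- and 13.7% to 47.3% in central libraries. With those genes left out before scaling, the log2 fold change of Wfikkn2 given below was 3.03 in place of 3.04 for GFP+ against central cells. A count of 0 allows up to 3 counts, or 0.116 to 0.554 CPM depending on the library, for counting error only.

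Wfikkn2 was higher in the periphery than in the center, whether or not the cells carried GFP. It measured 99.2 CPM in the lowest, 177 in the median and 472 in the highest of the 6 GFP+ libraries. In peripheral GFP- cells it was 94.1 CPM in mouse 1, 112 in mouse 2, 148 in mouse 4, 312 in mouse 5 and 173 in mouse 7. In the 6 central libraries it was 12.2 CPM at the lowest, 25.2 at the median and 36.5 at the highest. Every one of the 11 peripheral libraries was thus above every central library, and the ranges of the GFP+ and peripheral GFP- libraries overlapped. These values rest on 1688 to 6709 counts per peripheral library and 85 to 467 counts per central library.

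The group means were 217 ± 144 CPM (SD, n = 6) in GFP+, 168 ± 86.2 CPM (SD, n = 5) in peripheral GFP- and 24.9 ± 9.78 CPM (SD, n = 6) in central cells. The fitted log2 fold change of Wfikkn2 was 3.04 (SE 0.46, 95% interval 2.07 to 4.01) for GFP+ against central cells, an 8.21-fold higher level. It was 2.69 (SE 0.47, 1.70 to 3.68) for peripheral GFP- against central cells, 6.45-fold higher. Between GFP+ and peripheral GFP- cells it was 0.37 (SE 0.41, −0.50 to 1.25). By group mean the order was therefore GFP+, peripheral GFP- and central, with overlapping ranges in the first 2. These means and fits did not pair libraries of the same mouse, and in mouse 2 the GFP+ level was 0.921 times the peripheral GFP- level. The 3 comparisons share libraries and are not independent of each other. In pools of cells, fewer cells that use a gene and less RNA per cell cannot be told apart.

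**Figure D1:**
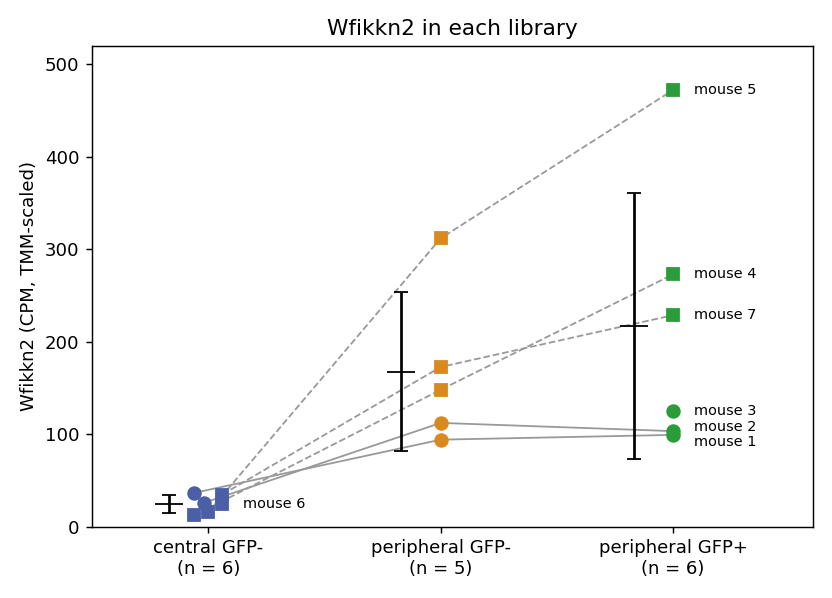
Wfikkn2 in CPM (vertical axis, TMM-scaled) in the 17 libraries, with 1 symbol per library, grey lines joining libraries of 1 mouse, circles and solid lines for mice 1 to 3, squares and dashed lines for mice 4 to 7, and black bars for the group mean ± SD. The central libraries lie between 12.2 and 36.5 CPM and all peripheral libraries, GFP+ or GFP-, at 94.1 CPM or above, with mouse 5 highest in both peripheral groups.

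The size of the difference varied between animals. Within a mouse, the GFP+ library held 2.72 times the Wfikkn2 CPM of the central library in mouse 1, 4.02 times in mouse 2, 22.4 times in mouse 4, 30.1 times in mouse 5 and 6.59 times in mouse 7. The peripheral GFP- library held 2.58, 4.37, 12.2, 19.9 and 4.98 times the central level in the same 5 mice. Both peripheral libraries were thus above the central one in 5 of 5 mice. The ratio of GFP+ to peripheral GFP- was 1.05 in mouse 1, 0.921 in mouse 2, 1.84 in mouse 4, 1.51 in mouse 5 and 1.32 in mouse 7.

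By animal number the mice split into 2 runs, mice 1 to 3 and mice 4 to 7, whose meaning the labels do not give. In the first run the mean Wfikkn2 level was 109 CPM in GFP+ (n = 3), 103 in peripheral GFP- (n = 2) and 31.1 in central cells (n = 2). In the second it was 325 CPM (n = 3), 211 (n = 3) and 21.8 (n = 4). The peripheral libraries were above the central ones in each run. The GFP+ libraries of the 2 runs did not overlap, with 99.2 to 125 CPM in the first and 229 to 472 in the second. The 3 central libraries with few detected genes all belong to the second run. Without them the central mean was 29.0 CPM, and the log2 fold change of Wfikkn2 was 2.86 (SE 0.53) for GFP+ and 2.49 (SE 0.46) for peripheral GFP- against central cells.

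Of the 6 genes fitted beside Wfikkn2, 0 passed the limits of a call, an edgeR adjusted p under 0.01 with an absolute log2 fold change over 1, in GFP+ against central cells. Of all 9286 genes tested there, 4 were called, or 0.0431%, and 0.862% had every GFP+ library above every central library. Wfikkn2 was among those 4 genes, which restates that it was chosen on this contrast, and nothing is read from it. It was not among the called genes with the mouse as a block, where its log2 fold change was 3.01 (SE 0.62), nor in 11 of the 12 fits that left out 1 library, where it ranged from 2.66 to 3.23, the exception being the fit without GFP+ mouse 1. In GFP+ against peripheral GFP- cells 0 of the 7 were called (0.0396% of 10102 genes tested), and in peripheral GFP- against central cells 0 of the 7 (0% of 9535), where 0.64% of genes had every peripheral library above every central one.

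Per kilobase of exon, which allows genes to be compared, Wfikkn2 was among the more abundant genes of the family in the periphery. Out of 108 genes of a TGF-beta family list, it ranked 4th in GFP+ cells at a mean of 56.7 CPM per kilobase, 5th in peripheral GFP- cells at 43.8 and 13th in central cells at 6.51. The genes above it in GFP+ cells were Sostdc1 (184 CPM per kilobase), Nog (160) and Bmp4 (114). Its ranks were below those of Bmp4, Sostdc1, Nog and Id2 in both GFP- groups.

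Wfikkn1, the closest relative of Wfikkn2, was nearly absent. It held 63 counts in the GFP+ library of mouse 7 (3.004 CPM), 12 counts in the central library of mouse 1 (1.01 CPM) and 0 counts in the other 15 libraries. It did not pass the filter on low counts in any comparison, and no difference between the groups was detectable at this depth.

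The best known ligands of the inhibitor differed widely in level. Mstn, myostatin, held 1 count each in the peripheral GFP- library of mouse 4 and the central libraries of mice 4 and 6, and 0 counts in the other 14, so that every library was under the 3 counts that a 0 allows. Gdf11 was found in all 17 libraries. Its lowest, median and highest GFP+ values were 19.1, 24.5 and 31.9 CPM. Among peripheral GFP- libraries Gdf11 was 42.5 CPM in mouse 1, 43.8 in mouse 2, 19.0 in mouse 4, 70.1 in mouse 5 and 24.6 in mouse 7. In central cells it ran from 0.50 CPM over a median of 8.86 to 49.0 CPM.

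The 3 groups overlapped for Gdf11. Its low central values, resting on 5 counts in mouse 4, 6 in mouse 5 and 40 in mouse 7, were in the 3 central libraries with the fewest detected genes. The log2 fold change was 0.73 (SE 0.98, −1.33 to 2.80, edgeR adjusted p = 1.00) for GFP+ against central cells. It was −0.14 (SE 0.58, edgeR adjusted p = 0.998) without those 3 libraries, 2.27 (SE 1.61, edgeR adjusted p = 0.914) with the mouse as a block, and 1.59 without the central library of mouse 2, the upper end of a range of 0.47 to 1.59 with single libraries left out. For peripheral GFP- against central cells it was 1.42 (SE 1.04, −0.78 to 3.61, edgeR adjusted p = 1.00), and for GFP+ against peripheral GFP- cells −0.67 (SE 0.45, −1.64 to 0.29, edgeR adjusted p = 1.00).

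Per kilobase, Wfikkn2 exceeded Gdf11 in every peripheral library. The ratio of Wfikkn2 to Gdf11 had a median of 8.14 (3.30 to 26.3) in GFP+ cells and 4.73 (2.35 to 8.29) in peripheral GFP- cells. In central cells it was 5.61 (0.556 to 25.9), with mouse 2 at 0.556 the only library in which Gdf11 was the higher of the pair. The highest central ratios, 25.9, 15.0 and 8.31, were in mice 4, 5 and 7, whose central libraries had the fewest detected genes. Gdf11 held 5, 6 and 40 counts there. In mice 1, 2 and 6 the central ratios were 2.92, 0.556 and 1.29.

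Bmp4, a ligand of the BMP branch, was the most abundant ligand of the list per kilobase in all 3 groups, at 114, 126 and 202 CPM per kilobase in GFP+, peripheral GFP- and central cells. It measured 200, 252 and 323 CPM in the lowest, median and highest GFP+ library. The peripheral GFP- values were 236 CPM in mouse 1, 236 in mouse 2, 311 in mouse 4, 285 in mouse 5 and 351 in mouse 7. In central cells its lowest value was 258 CPM, the median 422 and the highest 794.

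The highest central values of Bmp4 were above every peripheral value, while the lowest central values lay within the peripheral range. The log2 fold change for GFP+ against central cells was −0.88 (SE 0.27, −1.46 to −0.30), with an unadjusted p of 0.00499 and an edgeR adjusted p of 0.279, which ranged from 0.119 to 0.759 over the alternatives and left Bmp4 uncalled. For peripheral GFP- against central cells it was −0.73 (SE 0.30, −1.37 to −0.087, edgeR adjusted p = 1.00, 0.479 to 1.00 over the alternatives). Between the 2 peripheral groups it was −0.12 (SE 0.19, −0.52 to 0.28, edgeR adjusted p = 1.00). At an unadjusted p under 0.05, Bmp4 was 1 of the 6 tested genes beside Wfikkn2 in GFP+ against central cells, where 5.8% of all genes tested reached that level and 3.66% did so with a lower level in GFP+ cells, and 1 of 6 in peripheral GFP- against central cells, where 2.7% reached it and 1.67% were lower. Of the central libraries, mice 4, 5 and 7 held 525, 322 and 794 CPM. Without those 3 libraries the log2 fold changes of Bmp4 were −0.48 (SE 0.24) and −0.37 (SE 0.27).

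Bmp7, another BMP ligand, spanned overlapping ranges in the 3 groups. It was 45.2, 65.0 and 109 CPM in the lowest, median and highest GFP+ library. The peripheral GFP- libraries held 74.6 CPM in mouse 1, 73.1 in mouse 2, 61.7 in mouse 4, 97.5 in mouse 5 and 87.9 in mouse 7. Central cells held 17.9 CPM at the lowest, 45.4 at the median and 94.5 at the highest. The groups overlapped, with log2 fold changes of 0.38 (SE 0.48, −0.64 to 1.40), −0.15 (SE 0.27, −0.74 to 0.43) and 0.57 (SE 0.52, −0.53 to 1.68) for GFP+ against central, GFP+ against peripheral GFP- and peripheral GFP- against central cells, each at an edgeR adjusted p of 1.00.

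Tgfb2, a ligand of the TGF-beta branch, was present in single libraries rather than in a group. It held 240 counts in mouse 1, 307 in mouse 3 and 16 in mouse 4 among the GFP+ libraries, and 0 in the other 3. Peripheral GFP- libraries held 7 counts in mouse 1, 3 in mouse 5 and 0 in mice 2, 4 and 7. In central cells it held 102 counts in mouse 6, 3 in mouse 7 and 0 in the other 4. The 2 highest libraries, at 13.6 and 9.31 CPM, were GFP+ libraries, and at 0 counts in 10 of 17 libraries the gene did not pass the filter.

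**Figure D2:**
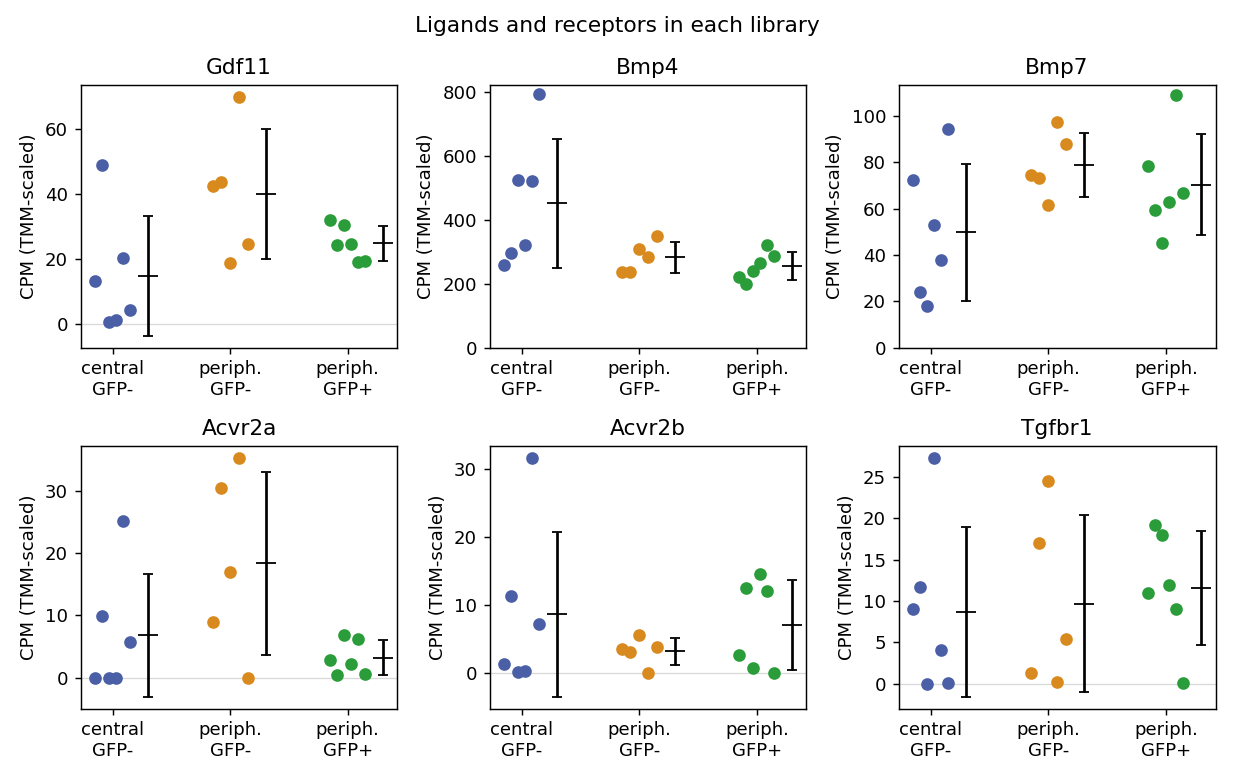
CPM (vertical axes, TMM-scaled) of 3 ligands and 3 receptors in each library, with 1 point per library and black bars for the group mean ± SD, which can reach below 0 where libraries at or near 0 stand beside high ones. The groups overlap for every gene, Bmp4 reaches 794 CPM in central cells against at most 351 CPM in the periphery, and the 3 receptors vary from 0 or near 0 to 35.4 CPM within a group.

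The 3 receptors varied widely from pool to pool, with group means of 0.562 to 3.23 CPM per kilobase. Acvr2a, a type II receptor of activins, myostatin and GDF11, was 0.38, 2.51 and 6.89 CPM in the lowest, median and highest GFP+ library. In peripheral GFP- cells it was 9.03 CPM in mouse 1, 30.5 in mouse 2, 16.9 in mouse 4, 35.4 in mouse 5 and 0 in mouse 7. In central cells it was 0 in mice 1, 4 and 5 and reached 25.2 CPM in mouse 6. Thus 4 of 5 peripheral GFP- libraries were above every GFP+ library and the last was below them all.

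Acvr2a had a log2 fold change of −2.54 (SE 1.26, −5.21 to 0.14, edgeR adjusted p = 0.910, 0.310 to 1.00 over the alternatives) for GFP+ against peripheral GFP- cells. It was −1.10 (SE 1.60, −4.48 to 2.28, edgeR adjusted p = 1.00) for GFP+ against central cells and 1.43 (SE 1.80, −2.37 to 5.23, edgeR adjusted p = 1.00) for peripheral GFP- against central cells. The last 2 intervals reach more than 2 units of log2 on either side of 0, and the first reaches 0.14 above it.

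Acvr2b, the second activin type II receptor, was 0, 7.26 and 14.6 CPM in the lowest, median and highest GFP+ library. It was 3.45 CPM in mouse 1, 2.95 in mouse 2, 5.54 in mouse 4, 0 in mouse 5 and 3.76 in mouse 7 among peripheral GFP- libraries. In central cells it ran from 0.10 CPM over a median of 4.18 to 31.6 CPM, in mouse 6. The groups overlapped, with log2 fold changes of −0.26 (SE 1.52, −3.46 to 2.94) for GFP+ against central, 1.23 (SE 1.54, −2.04 to 4.50) for GFP+ against peripheral GFP- and −1.48 (SE 1.65, −4.97 to 2.02) for peripheral GFP- against central cells, each at an edgeR adjusted p of 1.00.

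Tgfbr1, a type I receptor for TGF-beta, also used by myostatin and GDF11, was 0.14, 11.5 and 19.2 CPM in the lowest, median and highest GFP+ library. Its peripheral GFP- values were 1.28 CPM in mouse 1, 17.1 in mouse 2, 24.6 in mouse 4, 0.16 in mouse 5 and 5.44 in mouse 7. In central cells it ran from 0 over a median of 6.57 to 27.4 CPM. Libraries near 0 stood in each group, and the log2 fold changes were 0.24 (SE 1.40, −2.72 to 3.20), 0.32 (SE 1.19, −2.21 to 2.84) and −0.016 (SE 1.62, −3.45 to 3.42) for GFP+ against central, GFP+ against peripheral GFP- and peripheral GFP- against central cells, each at an edgeR adjusted p of 1.00.

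**Figure D3:**
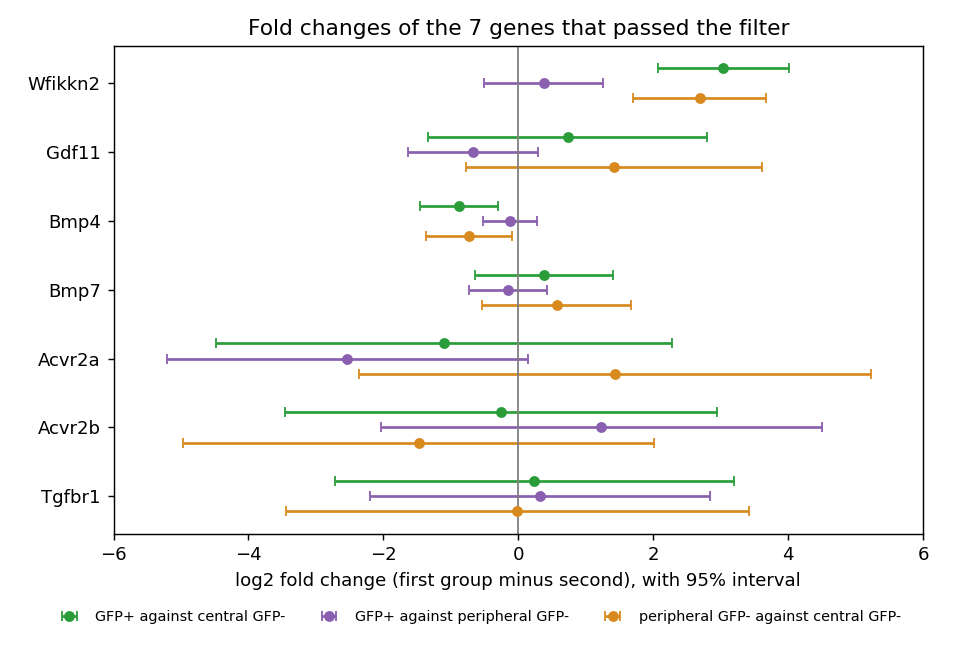
Log2 fold change with 95% interval (horizontal axis) of the 7 genes that passed the filter on low counts, in the 3 comparisons, which share libraries. The intervals of Wfikkn2 against central cells run from 2.07 to 4.01 and from 1.70 to 3.68, those of Bmp4 against central cells lie below 0, and those of the 3 receptors all include 0, from −5.21 at the lowest to 5.23 at the highest.

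The rest of the pathway was described with the list of 108 genes, which holds the 10 above and was drawn up by role with results of these data known. Beside Wfikkn2, 42 of its 107 genes passed the filter in GFP+ against central cells, 21 with a higher and 21 with a lower fitted level in GFP+ cells. Their median log2 fold change was 0.01, against 0.00 over all genes tested, and 0 were called. In GFP+ against peripheral GFP- cells 44 passed, 17 higher and 27 lower with a median of −0.33 against 0.01 over all genes, and 0 were called. In peripheral GFP- against central cells 44 passed, 23 higher and 21 lower with a median of 0.16 against 0.01, and 0 were called. The list genes at an unadjusted p under 0.05 beside Wfikkn2 were Sostdc1 and Bmp4 in GFP+ against central cells, 2 of 42 where 5.8% of all genes tested reached that level, and Twsg1 and Bmp4 in peripheral GFP- against central cells, 2 of 44 where 2.7% did.

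Of the ligands, 6 of 33 passed the filter in each comparison. The fitted level was higher in GFP+ than central cells for 2 and lower for 4, where 4638 of all 9286 genes tested were lower. It was lower in GFP+ than peripheral GFP- cells for 6 of 6, where 4971 of all 10102 genes tested were lower. Of these 6 changes only that of Gdf11 (−0.67, SE 0.45) was larger than its SE, and none was called. Bmp2, a close relative of Bmp4, averaged 53.0 ± 27.8 CPM (SD, n = 6) in GFP+, 70.1 ± 28.3 (SD, n = 5) in peripheral GFP- and 63.5 ± 38.0 (SD, n = 6) in central cells, a spread wider than any difference between the groups. Among the proteases that cut ligand precursors, Furin averaged 10.0, 19.8 and 7.51 CPM, Bmp1, which frees myostatin and GDF11 from their propeptides, 3.11, 5.16 and 7.92 CPM, and Pcsk5 1.99, 3.40 and 3.16 CPM in GFP+, peripheral GFP- and central cells. None of the 3 was called.

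Per kilobase, Bmpr2 was the highest type II receptor of the list over the 17 libraries and Bmpr1a the highest type I receptor. Bmpr2, the type II receptor of BMPs, averaged 66.7 ± 36.5 CPM in GFP+ (SD, n = 6), 81.8 ± 35.5 in peripheral GFP- (SD, n = 5) and 82.2 ± 58.4 in central cells (SD, n = 6). Bmpr1a, a BMP type I receptor, averaged 50.1 ± 34.4, 47.8 ± 15.7 and 58.9 ± 52.3 CPM. Acvr1, another type I receptor, averaged 10.3, 5.99 and 12.3 CPM. The 4 type II receptors tested all had a lower fitted level in GFP+ than central cells (median log2 fold change −0.74). Each of these changes was smaller than its SE, and 4638 of all 9286 genes tested were also lower. The 4 type I receptors were split 2 and 2. The co-receptor Tgfbr3, also called betaglycan, averaged 55.8 ± 12.1, 88.3 ± 43.4 and 62.3 ± 39.6 CPM, while Rgmb averaged 9.56, 14.7 and 12.0 CPM and Rgma 2.36, 1.28 and 1.37 CPM. No receptor or co-receptor was called in any comparison.

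The other extracellular antagonists included Sostdc1 and Nog, which were among the 4 highest genes of the list per kilobase in each group. The fitted level was higher in GFP+ than central cells for 5 of the 7 that passed the filter (median log2 fold change 0.81), where 4648 of all 9286 genes tested were higher. It was higher in peripheral GFP- than central cells for 6 of 7 (median 0.56), where 4803 of all 9535 genes tested were higher. In each comparison some of these changes were smaller than their SE, and none was called. Sostdc1, a secreted BMP and Wnt antagonist, was 236, 298 and 514 CPM in the lowest, median and highest GFP+ library. Peripheral GFP- cells held 117 CPM in mouse 1, 268 in mouse 2, 331 in mouse 4, 86.3 in mouse 5 and 301 in mouse 7, and in central cells 34.5 CPM at the lowest, 163 at the median and 261 at the highest. The groups overlapped. Sostdc1 had a log2 fold change of 1.01 (SE 0.40, edgeR adjusted p = 0.604) for GFP+ against central cells, 0.62 (SE 0.33, adjusted p = 0.939) for GFP+ against peripheral GFP- and 0.43 (SE 0.47, adjusted p = 1.00) for peripheral GFP- against central cells.

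Nog, noggin, which binds BMPs and keeps them from their receptors, averaged 271 ± 132 CPM in GFP+ (SD, n = 6), 221 ± 164 in peripheral GFP- (SD, n = 5) and 144 ± 77.5 in central cells (SD, n = 6). Its log2 fold change was 0.81 (SE 0.45, edgeR adjusted p = 1.00) for GFP+ against central cells. Twsg1, a BMP-binding protein, averaged 36.7 ± 24.3, 87.5 ± 67.8 and 13.9 ± 17.9 CPM. Its fitted level was lower in GFP+ than peripheral GFP- cells (log2 fold change −1.27, SE 0.51, edgeR adjusted p = 0.774) and higher in peripheral GFP- than central cells (2.65, SE 1.01, edgeR adjusted p = 1.00). The central libraries of mice 4, 5 and 7 held 4, 9 and 11 counts of Twsg1.

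Fstl1, a secreted follistatin-like protein, lies outside the rule for named genes and is given because its groups did not overlap, which was seen in its values. It was 0.09 CPM in the lowest, 4.04 in the median and 7.62 in the highest GFP+ library. In peripheral GFP- cells it was 12.0 CPM in mouse 1, 38.9 in mouse 2, 9.002 in mouse 4, 47.8 in mouse 5 and 58.1 in mouse 7. Every GFP+ library was thus below every peripheral GFP- library, and the central libraries, at a mean of 10.4 ± 9.05 CPM (SD, n = 6), overlapped both. The log2 fold change for GFP+ against peripheral GFP- cells was −3.02 (SE 0.96, edgeR adjusted p = 0.629). Fstl1 and Id2 were the 2 of 44 list genes whose ranges did not overlap in this comparison, both lower in GFP+ cells, where 1.29% of all genes tested did not overlap in either direction and 0.663% were lower. The list genes at an unadjusted p under 0.05 numbered 4 of 44 (5.58% of all genes tested): Fstl1, Id2 and Twsg1 lower and Tsc22d1 higher in GFP+ cells.

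Among SMADs and their regulators, 6 of 9 tested genes had a higher and 3 a lower fitted level in GFP+ than central cells, where 4648 of all 9286 genes tested were higher. Smad2 carries the signal of TGF-beta, activins, myostatin and GDF11. It averaged 20.1 ± 12.9 CPM in GFP+ (SD, n = 6), 34.5 ± 31.5 in peripheral GFP- (SD, n = 5) and 5.44 ± 8.95 in central cells (SD, n = 6). The central libraries held 276 counts of Smad2 in mouse 1, 93 in mouse 2, and 7, 0, 2 and 31 in mice 4, 5, 6 and 7. Smad4, the partner shared by both branches, averaged 21.4 ± 11.6, 19.1 ± 5.50 and 43.8 ± 56.3 CPM, with 157 CPM in the central library of mouse 7. Skil, a repressor of SMAD activity, averaged 26.4, 23.0 and 18.6 CPM. None was called.

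Of the target genes, Id2, a transcriptional regulator known to respond to BMPs, was 64.0, 126 and 176 CPM in the lowest, median and highest GFP+ library. Peripheral GFP- libraries held 330 CPM in mouse 1, 183 in mouse 2, 179 in mouse 4, 353 in mouse 5 and 225 in mouse 7. Every GFP+ library was below every peripheral GFP- library, the closest values being 176 and 179 CPM. Id2 had a log2 fold change of −1.03 (SE 0.28, edgeR adjusted p = 0.440). In central cells Id2 was 0.37 CPM in mouse 5, on 2 counts, and 248 to 519 CPM in the other 5 libraries, and the log2 fold change for GFP+ against central cells was −1.27 (SE 0.71, edgeR adjusted p = 1.00).

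Tsc22d1, a TGF-beta-responsive gene, averaged 68.7 ± 22.02 CPM in GFP+ (SD, n = 6), 40.5 ± 10.8 in peripheral GFP- (SD, n = 5) and 77.5 ± 101 in central cells (SD, n = 6), with a log2 fold change of 0.80 (SE 0.33, edgeR adjusted p = 0.801) for GFP+ against peripheral GFP- cells. Bhlhe40, a transcriptional repressor, averaged 40.7, 57.9 and 38.1 CPM. Over all 3 comparisons, the target genes were split 4 higher and 3 lower, 3 and 4, and 3 and 4 among the 7 that passed the filter.

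**Figure D4:**
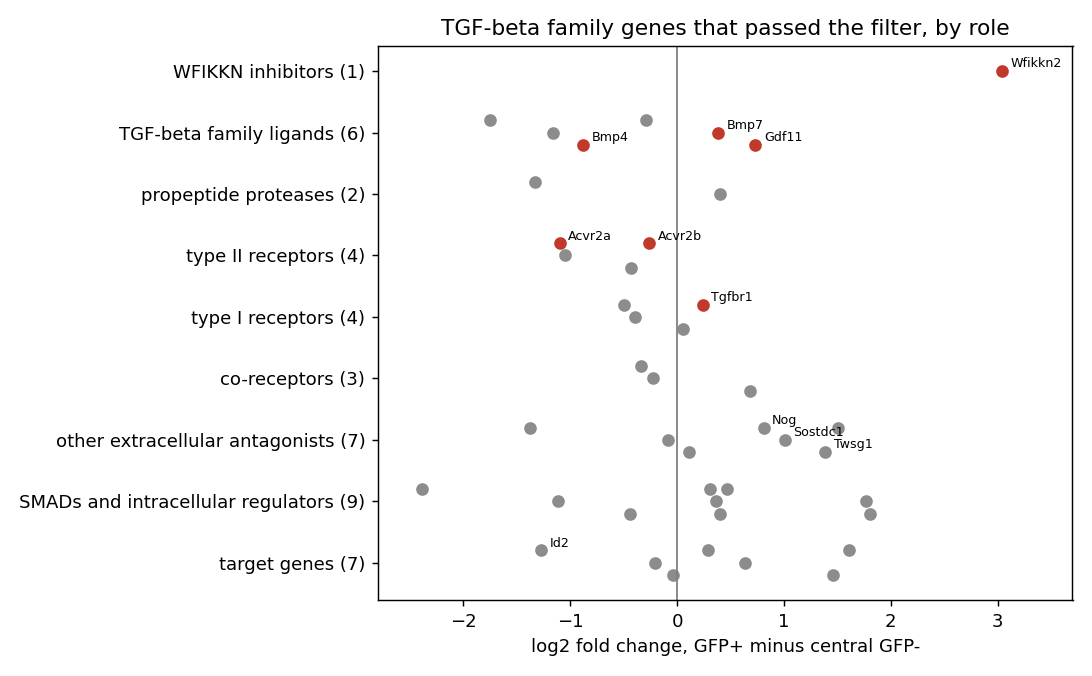
Log2 fold change of GFP+ minus central GFP- cells (horizontal axis) for the 43 genes of the TGF-beta family list that passed the filter, in rows by role with the number of genes in brackets, the 7 genes described first in red and the others in grey. Wfikkn2 lies at 3.04, and the other 42 genes fall between −2.38 and 1.81, with 21 on either side of 0.

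The genes whose pattern over the 17 libraries was most like that of Wfikkn2 were ranked by Pearson's r of log2(CPM + 1) among 10659 genes. The first was Slc4a5 (r = 0.915), a sodium bicarbonate cotransporter, followed by Mgat3 (0.874), a glycosyltransferase, Myrf (0.872), a membrane-bound transcription factor, Proser2 (0.872) and Sema6d (0.832), a semaphorin. These values describe libraries that share animals, groups and depth, and with Spearman's rho or a pseudocount of 0.1 in place of 1, 3 of the 5 were again among the first 5, led by Slc4a5 in both.

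Slc4a5 was 402, 701 and 895 CPM in the lowest, median and highest GFP+ library. In peripheral GFP- cells it was 468 CPM in mouse 1, 661 in mouse 2, 681 in mouse 4, 804 in mouse 5 and 393 in mouse 7, and in central cells 195, 304 and 384 CPM at the lowest, median and highest. As for Wfikkn2, every peripheral library was above every central one, and mouse 5 was the highest in both peripheral groups. Slc4a5 was picked for its likeness to Wfikkn2 over these same libraries, so the shared pattern restates that choice. Myrf averaged 189 ± 40.4 CPM in GFP+ (SD, n = 6), 178 ± 58.2 in peripheral GFP- (SD, n = 5) and 108 ± 27.0 in central cells (SD, n = 6), with ranges that overlapped. Mgat3 averaged 25.8 ± 15.6, 23.6 ± 8.14 and 3.02 ± 3.81 CPM, Sema6d 29.1 ± 9.41, 20.5 ± 18.6 and 1.95 ± 3.57 CPM, and Proser2 6.31 ± 4.52, 8.58 ± 8.23 and 0.784 ± 1.35 CPM in the same groups. The central libraries of mice 4, 5 and 7, with few detected genes, held 1, 0 and 0 counts of Mgat3. They held 0, 0 and 0 counts of Sema6d and 0, 0 and 8 of Proser2, which lowers these central means.

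Markers of other cell types differed in level between the lists. The summed endothelial markers reached at most 26.0 CPM and those of choroidal stroma and fibroblasts at most 2.03 CPM in any library. The 6 macrophage and microglia markers summed to 38.1 to 111 CPM in GFP+, 105 to 146 in peripheral GFP- and 68.4 to 116 in central libraries, nearly all of it from Csf1r (means of 59.9, 122 and 90.7 CPM), while Cd68 reached 8.42 CPM and Tyrobp was at 0 in all 17. The summed rod and cone markers ranged from 1.80 to 35.8 CPM in GFP+, 10.8 to 38.7 in peripheral GFP- and 12.8 to 128 in central libraries. Of 6 markers of ciliary and iris epithelium, the tissue beside the peripheral RPE, Wfdc1 was at 0 in all libraries and Otx1 held at most 1 count. Their sum was 507 to 705 CPM in GFP+, 406 to 889 in peripheral GFP- and 266 to 724 in central libraries, mostly from Wls, so that the 3 groups overlapped. The 6 choroid melanocyte markers summed to 307 to 569 CPM in GFP+, 258 to 520 in peripheral GFP- and 250 to 583 in central libraries, mostly from the pigment gene Tyr, which RPE also uses. Among them Sox10 averaged 59.7, 64.6 and 71.4 CPM, and Mlana 37.1, 7.42 and 6.01 CPM in the same order. The 6 Mueller glia markers, of which Rlbp1 is also an RPE marker, summed to 3572 to 4811, 2837 to 5127 and 2701 to 6431 CPM, with Vim at means of 166, 33.7 and 74.9 CPM and Aqp4 at no more than 2 counts in any library. The part of other cells in the Wfikkn2 values was not tested beyond these levels.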

How the data were processed

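Each of the 17 libraries was made from a pool of hand-picked RPE cells with a SMART-Seq kit. Per the labels, reads were processed with fastp and Salmon against GRCm38.p6 (submitters' processing notes), with versions, annotation and strand setting not given in the sources used here. The authors deposited estimated counts per gene symbol as whole numbers, without normalization, and every per-sample column was used. Groups came from the sample labels. No molecular identifiers were described, so floors cover counting error only.

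Comparisons were made in R (version 4.3.3) with edgeR (version 4.0.16) on the libraries of the 2 groups compared: default filter on low counts, TMM normalization, quasi-likelihood test, and Benjamini-Hochberg adjustment over all genes tested, with calls made at adjusted p under 0.01 where the log2 fold change exceeded 1 in size. Adjusted p-values of 1.00 are rounded. SEs were derived from the F statistic. CPM values were TMM-scaled over 17 libraries. Lengths and positions were those of GENCODE M21 on GRCm38. The procedure was tested on simulated counts.

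The 10 genes and the lists were chosen with earlier results of these data known. Named pathway genes were those called, those with no overlap between GFP+ and central cells, and the 3 highest per role in CPM per kilobase; the 5 genes most like Wfikkn2 were added.

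Libraries of 1 mouse number come from the same animal per the labels, or for mouse 1 from the same 2 animal numbers. Over 15 such pairs the correlation of deviations from group means ranged from −0.0195 to 0.0922, with 0 above 0.1. No 2 libraries were duplicates (highest correlation 0.924 over 136 pairs). Alternatives were DESeq2 (version 1.42.0), RLE size factors, no filter or 10 counts in 5 libraries, all 3 groups in 1 fit, the mouse as a block, a covariate for the run of animal numbers, and each library left out. Leaving out mitochondrial genes, or the central libraries of mice 4, 5 and 7 together, was added after seeing the data.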

Additional observations from a re-analysis of the deposited data

Results flagged for a closer look

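Of 28 groups of values of the 10 genes, 5 held a library far from the others of its group by Dixon's criterion. The criterion supposes normally distributed values, so no chance rate is set beside this number. A group with 1 library above 0 and all others at 0 meets it at any value, as for Wfikkn1 and Mstn here. Wfikkn1 was at 3.004 CPM in the GFP+ library of mouse 7 and at 1.01 CPM in the central library of mouse 1, with every other library of those groups at 0. Mstn was at 0.0481 CPM in the peripheral GFP- library of mouse 4, which is 1 count and under the floor of 3 counts. Tgfb2 was at 7.65 CPM and Acvr2b at 31.6 CPM in the central library of mouse 6, where the next highest central libraries held 0.333 and 11.3 CPM.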

How the results depend on the processing

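The log2 fold change of Wfikkn2 kept its sign under every alternative against central cells. With single libraries left out it ranged from 2.66 to 3.23 for GFP+ and from 2.32 to 2.86 for peripheral GFP- against central cells, and from −0.011 to 0.76 for GFP+ against peripheral GFP- cells. Its group means then ranged from 166 to 241, 132 to 186 and 22.6 to 27.5 CPM. Under 4 scalings the peripheral and central ranges did not overlap. In GFP+ against central cells the 1 call among the 10 genes, and among the list, became 0 with RLE size factors, with the filter of 10 counts in 5 libraries, with the run as a covariate, with the central libraries of mice 4, 5 and 7 removed and, in the paired analysis, with the mouse as a block, and with single libraries left out was 0 in 11 of 12 fits and 1 in the fit without GFP+ mouse 1. The 4 calls over all genes became 202 with DESeq2 (82 higher, 120 lower), 2 with the filter, 1 with the covariate, 56 with the block (1 higher, 55 lower) and 1 to 3 with single libraries left out. In GFP+ against peripheral GFP- cells 4 calls became 67 with DESeq2 (37 higher, 30 lower), 0 with all groups in 1 fit, 0 with the block, 1 with the covariate and 0 to 5 with single libraries left out. In peripheral GFP- against central cells, edgeR made 0 calls (257 genes at an unadjusted p under 0.05) and DESeq2 29 (18 higher, 11 lower). Of these 29, 1, Wfikkn2, was in the list. Wfikkn2 was chosen on its difference between peripheral and central cells, so nothing is read from whether it was called under any setting. Without the same 3 central libraries edgeR made 1 call in this comparison. The cause of these shifts was not tested.

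Wfikkn2 in GFP+ against peripheral GFP- cells passed below 0, at −0.011, without GFP+ mouse 5. Other directions also reversed. For GFP+ against central cells these were Gdf11 at −0.14 without the central libraries of mice 4, 5 and 7, Acvr2a at 3.99 and Acvr2b at 1.73 with the mouse as a block, and Tgfbr1 at −0.0035 with the run as a covariate. With single libraries left out Acvr2b ranged from −0.62 to 0.79 and Tgfbr1 from −0.031 to 1.16. For peripheral GFP- against central cells Tgfbr1 was 0.12 without a filter, 0.68 with the block, 0.15 without the 3 central libraries and −0.69 to 0.89 with single libraries left out. The block changed no other call among the 10 genes.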
